A study of Mus musculus with 14 samples.

Results

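Insulin receptor signalling was followed in mouse liver through 9 genes, namely Insr, Irs1, Irs2, Pik3r1, Akt1, Akt2, Gsk3b, Foxo1 and Foxo3. They were fixed by name, as genes of the pathway, with earlier results of these data known, and matched through the array annotation and the RefSeq gene table. Of the 9, 8 were measured, by 12 probes in all, among 32676 genes tested. Of the 32676, 15234 had a matched gene symbol. The others were probes not matched to a RefSeq gene, counted under their array names, and every share of all genes includes them. No probe could be assigned to Irs2, which was not analysed here. Per the labels, all animals were male C57BL/6 mice, 1 year old, that fed freely, with 1 liver on each array. The resveratrol group (4 mice) received a plant polyphenol, resveratrol, at 0.04% of a high-calorie diet. The high-calorie group (5 mice) ate the same diet without it, an AIN-93G diet modified so that fat supplied 60% of calories. The standard-diet group (5 mice) ate AIN-93G.

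Insulin binds its receptor, a tyrosine kinase, which phosphorylates the IRS adaptor proteins. These recruit phosphoinositide 3-kinase through its regulatory subunit, and the lipid made there activates the AKT kinases, which switch off GSK3 and keep the FOXO transcription factors out of the nucleus. In liver the pathway favours glycogen and fat synthesis and restrains glucose output, and most of its steps are changes of phosphorylation that an RNA measurement does not see.

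Each value is the log2 ratio of 1 liver (Cy3 dye) to a reference RNA pooled from 5 livers of the standard diet (Cy5 dye), and a difference is the difference of 2 group means of such ratios. With no dye swap, a ratio away from 0 in every group cannot be told apart from a dye effect on that probe. A gene rose or fell where the adjusted p from limma, with Benjamini-Hochberg adjustment over the 32676 genes, was under 0.05. "With the diet" stands for high-calorie against standard-diet livers and "with resveratrol" for resveratrol against high-calorie livers. The share of probes well above background was 82.0% to 92.4% on resveratrol arrays, 83.6% to 91.8% on high-calorie arrays and 77.9% to 88.3% on standard-diet arrays. All 7 hepatocyte marker genes tested were well above background on all 14 arrays. The diets also differed in markers of several cell types. The mean log2 ratio of the hepatocyte list was 0.619 to 0.857 on resveratrol arrays, 0.337 to 0.587 on high-calorie arrays and 0.695 to 0.921 on standard-diet arrays, and that of 9 stellate cell genes was -0.0363 to 0.152, 0.155 to 0.224 and -0.0893 to 0.138 in the same order of groups. For 8 adipocyte genes it was -0.0094 to 0.476, 0.041 to 0.279 and -0.441 to -0.310, and for 10 Kupffer cell and macrophage genes -0.866 to 0.285, -0.590 to -0.316 and -0.980 to -0.652, again in that order. By these list means the high-calorie arrays were lowest in the hepatocyte list and highest in the stellate list, and the standard-diet arrays were lowest in the adipocyte list. The median difference over the genes of a list, high-calorie minus standard diet, was -0.24 for hepatocyte and 0.24 for stellate genes. It was only 0.011 for adipocyte genes, so a few genes carry that list mean. Of the 10 Kupffer cell and macrophage genes, 0 were called in that comparison. Fewer cells of a type and less RNA per cell cannot be told apart in whole liver.

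Of the 8 genes, 1 changed with the high-calorie diet and the same gene changed with resveratrol. Pik3r1, which encodes the p85alpha regulatory subunit of phosphoinositide 3-kinase, rose in high-calorie against standard-diet livers, against a background of 9.44% of all genes called in that comparison (5.37% higher), and fell in resveratrol against high-calorie livers, against a background of 5.39% (2.22% lower). None of the 8 was called between resveratrol and standard-diet livers, where 0.214% of all genes were, and 1 of the 8 had an unadjusted limma p under 0.05, against 10.6% of all genes, while none had groups that did not overlap, against 2.94%. With 8 genes, 1 call cannot be read apart from these background shares. At an unadjusted limma p under 0.05, 4 of the 8 (Irs1, Pik3r1, Akt2 and Foxo3) differed between high-calorie and standard-diet livers, against 27.6% of all genes, and 2 of the 8 (Pik3r1 and Akt2) between resveratrol and high-calorie livers, against 22.2%.

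**Figure D1:**
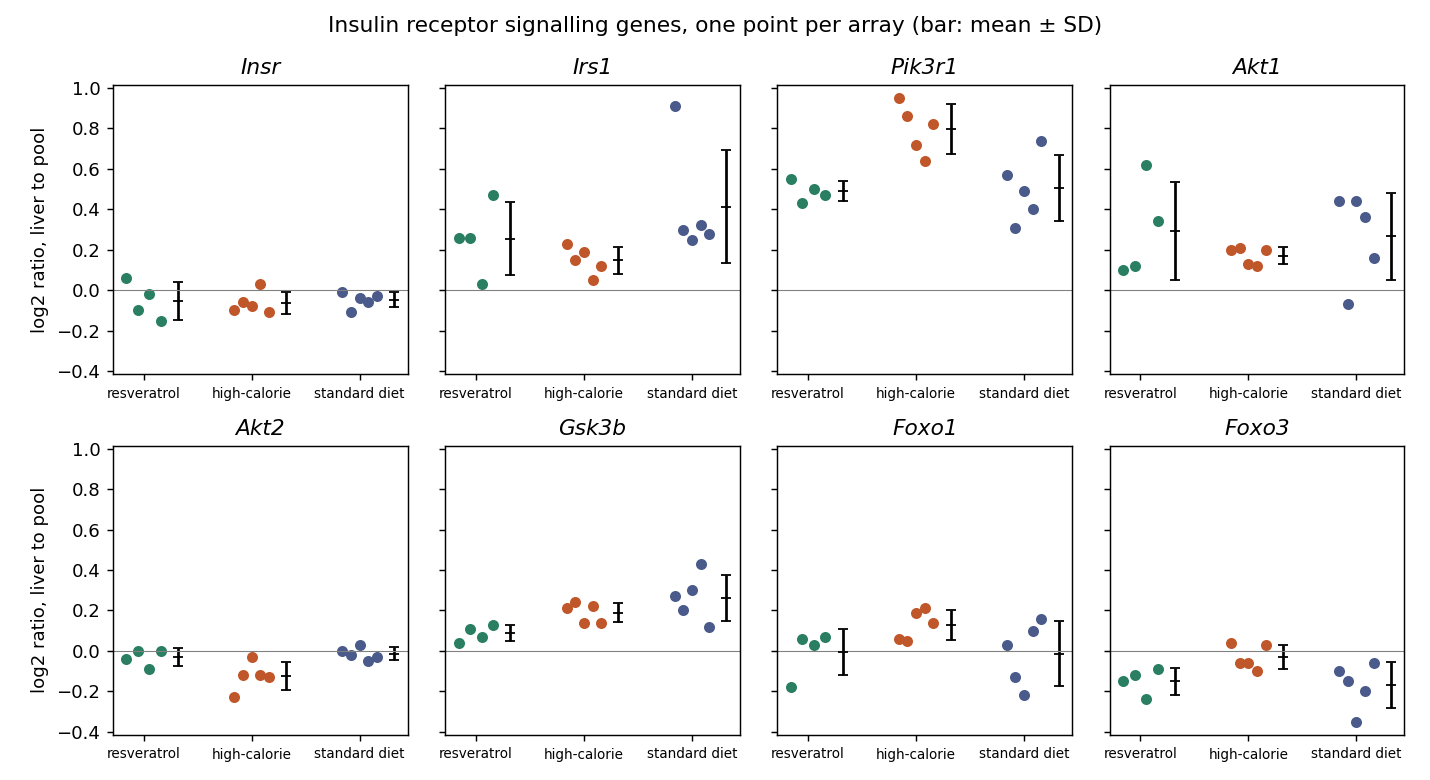
Log2 ratio of liver to pool (vertical axis) of the probe used for each of the 8 measured genes, with 1 point per array for the resveratrol, high-calorie and standard-diet groups and a bar for the mean ± SD. Pik3r1 lies between 0.64 and 0.95 on the 5 high-calorie arrays, above all 4 resveratrol arrays and above 4 of the 5 standard-diet arrays.

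By the probe assigned to it, the receptor gene Insr was nearly level across the diets. Its log2 ratio was 0.06, -0.10, -0.02 and -0.15 on resveratrol arrays, -0.10, -0.06, -0.08, 0.03 and -0.11 on high-calorie arrays and -0.01, -0.11, -0.04, -0.06 and -0.03 on standard-diet arrays, and all 3 groups overlapped. The difference was -0.014 between high-calorie and standard-diet livers (95% confidence interval -0.11 to 0.079, limma adjusted p = 0.866). Between resveratrol and high-calorie livers it was 0.010 (-0.088 to 0.11, adjusted p = 0.927). A second probe lies on the clone D630014A15, which RefSeq lists among older names of Insr but which the array annotation leaves unclassified. It was the brighter, with a median net Cy3 signal of 185.3 units on high-calorie arrays against 55.2 for the assigned probe. It gave 0.31 between high-calorie and standard-diet livers (limma adjusted p = 0.0564 over all probes). Between resveratrol and high-calorie livers it gave -0.20 (adjusted p = 0.257 over all probes).

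Irs1 encodes the adaptor that the activated receptor phosphorylates. Its log2 ratio was 0.26, 0.26, 0.03 and 0.47 on resveratrol arrays, 0.23, 0.15, 0.19, 0.05 and 0.12 on high-calorie arrays and 0.91, 0.30, 0.25, 0.32 and 0.28 on standard-diet arrays. Every high-calorie array lay below every standard-diet array, as was so for 5.18% of all genes (10.3% did not overlap in either direction), while the resveratrol arrays overlapped both. The difference between high-calorie and standard-diet livers was -0.27 ± 0.11 (SE), with a limma adjusted p of 0.144, so it did not pass. A two-sided exact permutation test of this gene alone gave an unadjusted p = 0.00794, the smallest the design allows. Without standard-diet replicate 1, which held the 0.91, the difference was -0.14 (adjusted p = 0.232). The probe was dim, with a median net Cy3 signal of 23.1 units on resveratrol arrays, 19.4 on high-calorie arrays and 17.1 on standard-diet arrays, and the offset of 50 units added before the logarithm shrinks ratios at such signals. The diet difference of Irs1 was -0.45 with an offset of 16 (limma adjusted p = 0.104), -0.66 with the scanner's processed signals (0.0841), -0.74 with the Cy3 channel alone scaled to the 75th percentile (0.204), -0.33 with median scaling (0.0541) and -0.059 with no background correction (0.210).

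Pik3r1 is also known to encode the shorter p55alpha and p50alpha subunits from internal starts, and the array holds 2 probes for it. RefSeq gives 2 transcription starts for the gene (build GRCm38.p6, minus strand), and the 300 bases around each, from 250 before to 50 after the start, are printed here since the probes behaved differently. Neither window holds the forkhead motif GTAAACA or its reverse complement TGTTTAC, which lie in 3.65% of all 32851 promoter windows of this length and in 1 of the 13 windows found for 8 of the 9 genes, so no letter is in capitals. Where the 2 probes lie relative to these starts was not determined.
Pik3r1 upstream start, chr13:101768168-101768467: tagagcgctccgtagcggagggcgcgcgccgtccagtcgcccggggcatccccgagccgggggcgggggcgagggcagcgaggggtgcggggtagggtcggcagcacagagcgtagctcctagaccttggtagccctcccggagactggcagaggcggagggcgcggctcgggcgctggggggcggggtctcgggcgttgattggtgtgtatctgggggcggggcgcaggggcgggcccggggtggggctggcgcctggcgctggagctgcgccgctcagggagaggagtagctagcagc
Pik3r1 downstream start, chr13:101692581-101692880: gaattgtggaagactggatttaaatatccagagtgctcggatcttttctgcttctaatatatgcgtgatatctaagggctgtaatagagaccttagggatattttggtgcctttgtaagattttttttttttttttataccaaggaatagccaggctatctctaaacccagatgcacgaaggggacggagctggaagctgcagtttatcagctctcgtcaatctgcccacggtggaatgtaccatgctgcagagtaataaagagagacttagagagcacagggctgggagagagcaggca

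Probe A_51_P511236, annotated on the array to a complete coding sequence of p85alpha, was the brighter and was used for the gene. It gave log2 ratios of 0.55, 0.43, 0.50 and 0.47 on resveratrol arrays, 0.95, 0.86, 0.72, 0.64 and 0.82 on high-calorie arrays and 0.57, 0.31, 0.49, 0.40 and 0.74 on standard-diet arrays. The high-calorie arrays were highest, apart from standard-diet replicate 5, which fell among them. Pik3r1 was 1.22-fold higher in high-calorie than in standard-diet livers (log2 difference 0.29 ± 0.07 SE, limma adjusted p = 0.0273, exact permutation p = 0.0238, two-sided). In resveratrol livers it was at 0.808 of the high-calorie level (log2 difference -0.31 ± 0.08 SE, limma adjusted p = 0.0390, exact permutation p = 0.0159, two-sided), with no overlap between the groups. Both comparisons share the high-calorie arrays, so they are not independent. Resveratrol and standard-diet livers differed by -0.014 (95% confidence interval -0.18 to 0.16, adjusted p = 0.969).

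The other probe, A_52_P307938, annotated to an alternatively spliced partial coding sequence of the same subunit, did not follow this pattern. It gave 0.52, 0.22, 0.31 and 0.71 on resveratrol arrays, 0.42, 0.50, 0.39, 0.19 and 0.44 on high-calorie arrays and 0.58, 0.61, 0.45, 0.38 and 0.43 on standard-diet arrays, and the groups overlapped. Its difference was -0.10 between high-calorie and standard-diet livers (limma adjusted p = 0.466 over all probes) and 0.051 between resveratrol and high-calorie livers (adjusted p = 0.796). Subtracting the second probe from the first on each array gave 0.03, 0.21, 0.19 and -0.23 on resveratrol arrays, 0.53, 0.36, 0.33, 0.44 and 0.38 on high-calorie arrays and -0.01, -0.30, 0.04, 0.02 and 0.30 on standard-diet arrays. The high-calorie arrays lay above all others in this difference between probes. A two-sided exact permutation test, a comparison added after seeing the data, gave p = 0.00794 both for high-calorie against standard-diet arrays and for resveratrol against high-calorie arrays, the smallest either design allows, or 0.0476 after adjustment over the 12 such tests on the 4 genes with 2 probes. The same test of the probe difference gave unadjusted p = 0.0317 with the diet and 0.0397 with resveratrol for Akt2 (0.0951 and 0.0952 adjusted). For Gsk3b it gave 0.0317 with the diet, 0.333 with resveratrol and 0.0476 for resveratrol against standard-diet arrays (0.0951, 0.444 and 0.0952 adjusted). For Foxo1 it gave 0.865 with the diet and 0.151 with resveratrol, unadjusted.

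**Figure D2:**
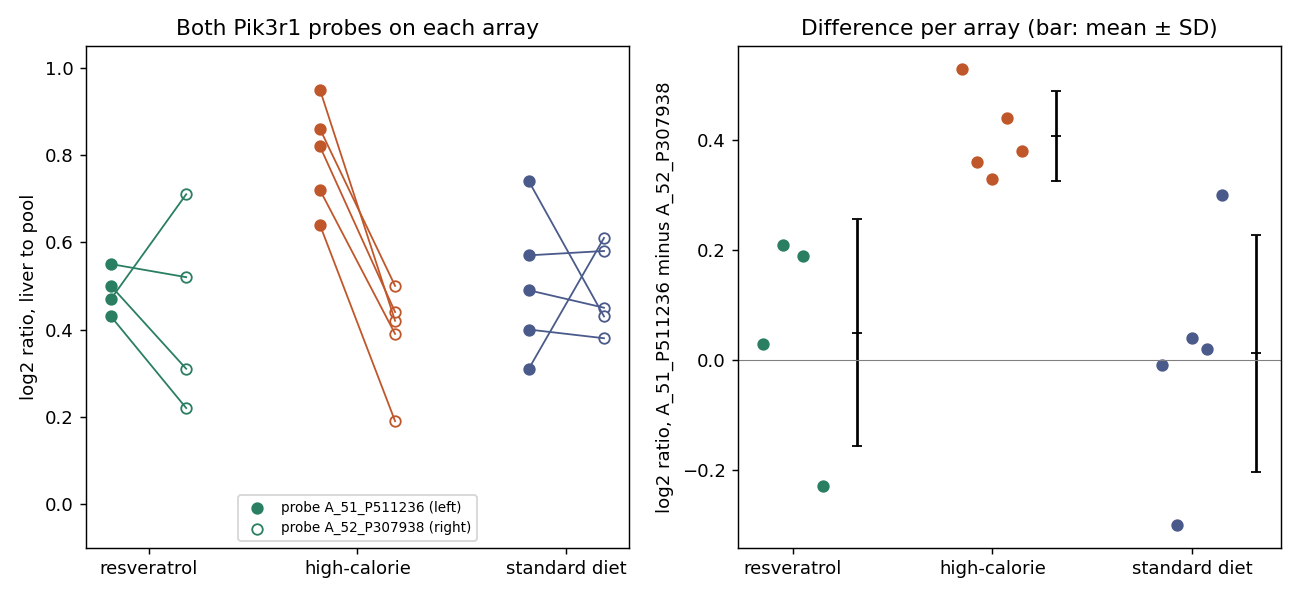
Left, log2 ratio of both Pik3r1 probes on each array, joined by a line, for the resveratrol, high-calorie and standard-diet groups. Right, the difference between the probes per array with the mean ± SD, which is -0.23 to 0.21 on resveratrol arrays, 0.33 to 0.53 on high-calorie arrays and -0.30 to 0.30 on standard-diet arrays.

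The call on Pik3r1 was sensitive to single arrays and to processing. Leaving out 1 array at a time kept the high-calorie call in 8 of 14 omissions, with differences of 0.25 to 0.35, and lost it without standard-diet replicate 2, 3 or 4 or high-calorie replicate 1, 2 or 5 (adjusted p at most 0.0673). The resveratrol call was kept in 5 of 14 omissions, with differences of -0.35 to -0.27, and was lost without any one of the 4 resveratrol arrays, high-calorie replicate 1, 2, 3 or 5 or standard-diet replicate 3 (adjusted p at most 0.0906). An omission from the group not compared leaves the difference as it is and changes only the shared spread. Among the arrays compared, the diet call was kept without standard-diet replicate 1 or 5 or high-calorie replicate 3 or 4. The resveratrol call was kept only without high-calorie replicate 4. Averaging both probes gave 0.095 (adjusted p = 0.355) and -0.13 (adjusted p = 0.292). Within the batches that the file headers and slide numbers define, high-calorie minus standard-diet was 0.30 on extraction day 1, 0.27 on extraction day 2 and 0.30 in slide series 2, and resveratrol minus high-calorie was -0.30 on extraction day 1 and -0.28 in slide series 1, none of them called at these smaller numbers. On extraction day 1 the high-calorie arrays were only replicates 1 and 4, both in slide series 1, while all standard-diet arrays were in series 2. Diet and slide series cannot be told apart in that day 1 value. Both resveratrol values rest on those same high-calorie replicates 1 and 4, so they are not separate evidence. Nor are the extraction day 2 and slide series 2 values of the diet. Both rest on high-calorie replicates 2, 3 and 5, and the day 2 standard-diet replicates, 2 and 5, are also in series 2. Of the marker lists, 7 of 9 stellate cell genes, 4 of 8 adipocyte genes, 2 of 7 hepatocyte genes and 2 of 9 endothelial genes were called between high-calorie and standard-diet livers, against 9.44% of all genes. In the Kupffer cell and macrophage, pancreatic, skeletal muscle and lymphocyte lists 0 of 10, 6, 6 and 7 genes were called. The median net Cy3 signal was 41.5 to 73.4 units on resveratrol arrays, 39.3 to 93.9 on high-calorie arrays and 30.1 to 62.9 on standard-diet arrays. With array brightness as a covariate Pik3r1 gave 0.17 (adjusted p = 0.329) for the diet and -0.27 (adjusted p = 0.0381) for resveratrol. The part of the cell markers in the Pik3r1 result was not tested.

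**Figure D3:**
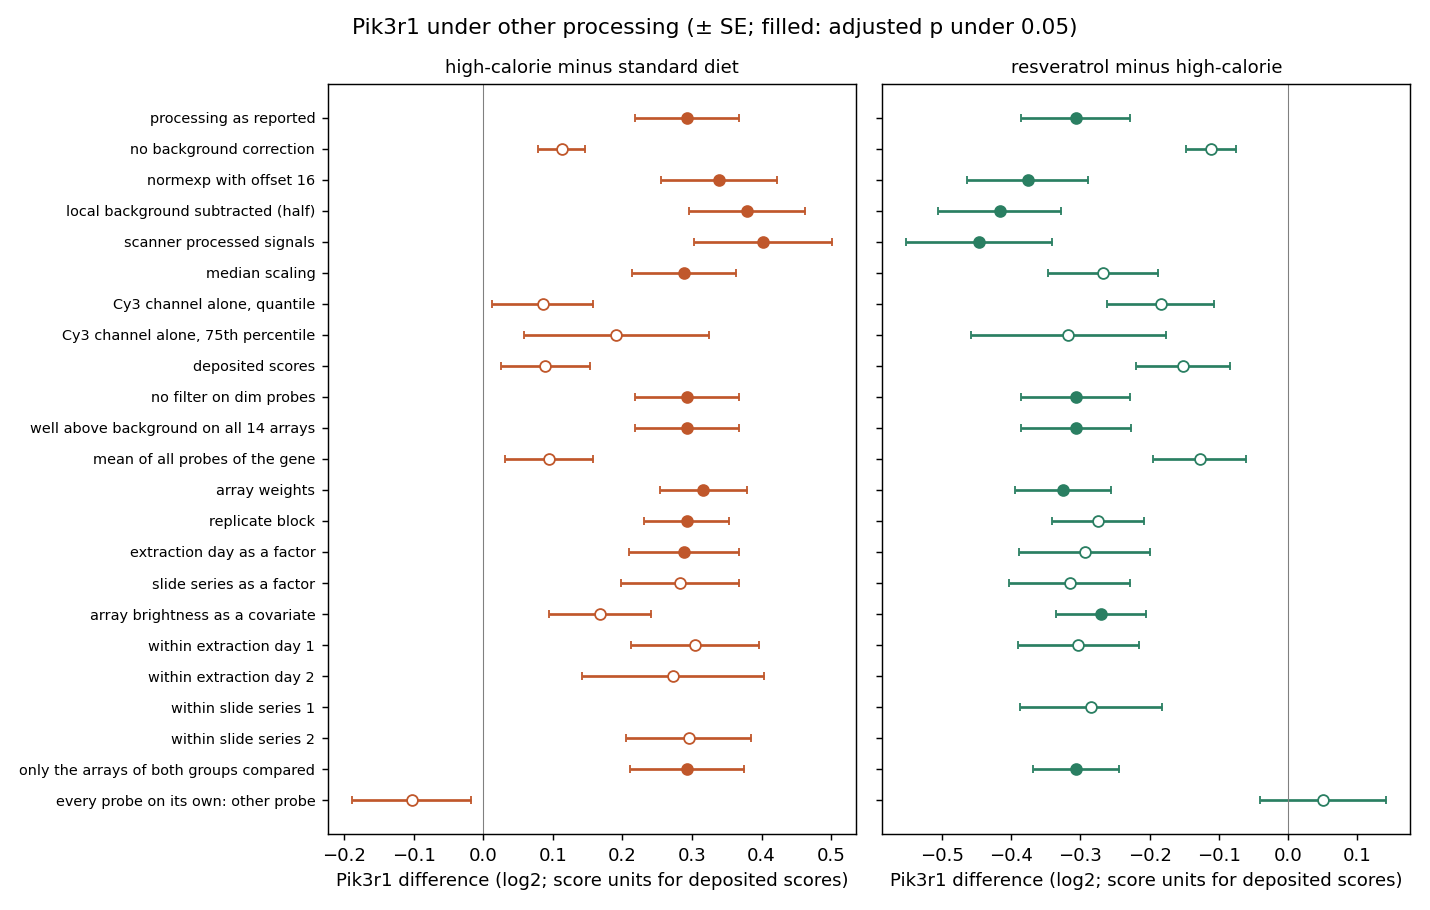
Pik3r1 difference ± SE (horizontal axis, log2, or score units for the deposited scores) under the processing alternatives, for high-calorie minus standard diet and resveratrol minus high-calorie, with filled points where the adjusted p was under 0.05. Omissions of arrays and quantile scaling after loess are not drawn. All estimates from the brighter probe and from the mean of both probes keep their sign, and the other probe alone lies at -0.10 and 0.051.

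Across the 14 arrays, the genes whose log2 ratios were most like those of Pik3r1, among 15042 genes with a symbol, were Zfp617 (Pearson r = 0.915), Pcgf5 (r = 0.897) and Fbln7 (r = 0.895). The arrays share the reference pool and the diet groups, so this is a description. Pcgf5, a Polycomb complex member, was itself called, at 0.28 between high-calorie and standard-diet livers (limma adjusted p = 0.0473) and -0.33 between resveratrol and high-calorie livers (adjusted p = 0.0440), while Zfp617 and Fbln7 did not pass in either comparison.

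Akt2 encodes the AKT kinase known as the main form in insulin target tissues, and its 2 probes differed in sign. The probe used gave -0.04, -0.00, -0.09 and 0.00 on resveratrol arrays, -0.23, -0.12, -0.03, -0.12 and -0.13 on high-calorie arrays and 0.00, -0.02, 0.03, -0.05 and -0.03 on standard-diet arrays. Of the high-calorie arrays, 4 lay below every array of the other diets. The difference was -0.11 ± 0.04 (SE) between high-calorie and standard-diet livers (limma adjusted p = 0.0802) and 0.094 between resveratrol and high-calorie livers (adjusted p = 0.191), neither past the threshold. The diet difference turned to 0.024 with median scaling (adjusted p = 0.781). It passed without high-calorie replicate 3, at -0.13 (adjusted p = 0.0484), and with no background correction, at -0.045 (adjusted p = 0.0492). The second probe, A_52_P2977, gave 0.056 (adjusted p = 0.599 over all probes) and -0.14 (adjusted p = 0.220). The related kinase gene Akt1 ranged from 0.10 to 0.62 on resveratrol arrays, 0.12 to 0.21 on high-calorie arrays and -0.07 to 0.44 on standard-diet arrays. Its differences were -0.095 for the diet (adjusted p = 0.594) and 0.12 for resveratrol (adjusted p = 0.567), and the high-calorie arrays were the least spread, with an SD of 0.042 against 0.24 on resveratrol arrays and 0.22 on standard-diet arrays.

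Gsk3b encodes a kinase that restrains glycogen synthase until AKT inactivates it. The probe used gave 0.04, 0.11, 0.07 and 0.13 on resveratrol arrays, 0.21, 0.24, 0.14, 0.22 and 0.14 on high-calorie arrays and 0.27, 0.20, 0.30, 0.43 and 0.12 on standard-diet arrays. The resveratrol arrays lay below every high-calorie array, as did Pik3r1 and 6.15% of all genes (13.0% did not overlap in either direction), and overlapped the standard-diet arrays only at standard-diet replicate 5. Resveratrol minus standard diet was -0.17 ± 0.05 (SE), with an unadjusted p of 0.00605 and a limma adjusted p of 0.252. That difference was -0.32 with an offset of 16, -0.50 with the scanner's processed signals, -0.55 with the Cy3 channel alone scaled to the 75th percentile and -0.030 with no background correction, and none of these passed (limma adjusted p = 0.216 to 0.782). Resveratrol minus high-calorie was -0.10 ± 0.05 (adjusted p = 0.294), and median scaling turned it to 0.045 (adjusted p = 0.799). The second probe, A_52_P641629, was not well above background in the pool on any array and in the animal's RNA on 1 of 14, and it read 0.22 to 0.34 on resveratrol arrays, 0.30 to 0.54 on high-calorie arrays and 0.15 to 0.34 on standard-diet arrays. It gave 0.17 for high-calorie minus standard diet (adjusted p = 0.0486 over all probes) where the first probe gave -0.072 (adjusted p = 0.380 over all probes). Both probes were dim, with median net Cy3 signals of 13.6 to 25.0 units over the groups.

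The FOXO transcription factors are the nuclear end of the pathway. The probe used for Foxo1, the main FOXO of gluconeogenic genes in liver, gave -0.18, 0.06, 0.03 and 0.07 on resveratrol arrays, 0.06, 0.05, 0.19, 0.21 and 0.14 on high-calorie arrays and 0.03, -0.13, -0.22, 0.10 and 0.16 on standard-diet arrays, and the groups overlapped. High-calorie minus standard diet was 0.14 ± 0.07 (SE, limma adjusted p = 0.221) by this probe and 0.15 (adjusted p = 0.158 over all probes) by the second, A_52_P453884, so here the probes gave alike values without passing. Resveratrol minus high-calorie was -0.13 (adjusted p = 0.334) by the first and -0.035 (adjusted p = 0.822) by the second.

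Foxo3, a related factor known for stress resistance and autophagy genes, gave -0.15, -0.12, -0.24 and -0.09 on resveratrol arrays, 0.04, -0.06, -0.06, -0.10 and 0.03 on high-calorie arrays and -0.10, -0.15, -0.35, -0.20 and -0.06 on standard-diet arrays. The high-calorie arrays were highest, with some overlap. The difference was 0.14 ± 0.05 (SE) between high-calorie and standard-diet livers (limma adjusted p = 0.113) and -0.12 ± 0.06 between resveratrol and high-calorie livers (adjusted p = 0.237). Without standard-diet replicate 5 the diet difference passed, at 0.16 (adjusted p = 0.0483), and with median scaling in place of loess it was 0.34 (adjusted p = 0.0306). Its direction turned when the Cy3 channel was used alone, scaled to the 75th percentile, with -0.33 for the diet and 0.46 for resveratrol.

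**Figure D4:**
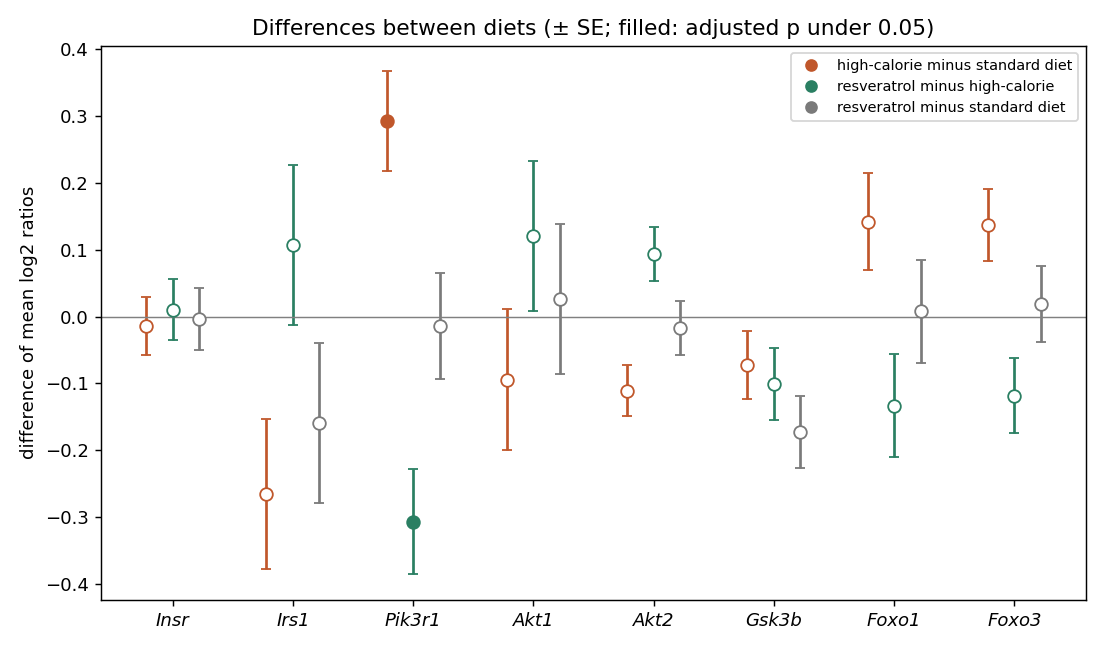
Difference of mean log2 ratios ± SE (vertical axis) for the 8 genes in the 3 comparisons, with filled points where the limma adjusted p was under 0.05. Only Pik3r1 has filled points, at 0.29 for high-calorie minus standard diet and -0.31 for resveratrol minus high-calorie, and all 8 genes lie between -0.17 and 0.026 for resveratrol minus standard diet.

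Beyond the 9 genes, 122 of 139 genes listed around the pathway were tested. Between high-calorie and standard-diet livers 6 rose and 4 fell, which is 8.20% of them, beside 9.44% of all genes. Between resveratrol and high-calorie livers 4 rose and 4 fell (6.56%, beside 5.39%), and between resveratrol and standard-diet livers none rose and 1 fell (0.82%, beside 0.214%), with 19 at an unadjusted limma p under 0.05, against 10.6% of all genes. Without standard-diet replicate 5 the first comparison gave 15 rises and 9 falls, where 5993 of all 32676 genes were called (3408 higher, 2585 lower). Median scaling gave 8 rises and no fall in the first comparison, where 2396 of all genes were higher and 636 lower. It gave no call in the second, where 120 of all genes were called. There 23 of the listed genes had an unadjusted limma p under 0.05, against 5740 of all 32676. The median difference over the 122 genes was 0.0069, -0.059 and -0.0082 in the 3 comparisons, beside -0.0021, -0.0068 and 0.00046 over all genes. Each call on these genes was refitted under 35 alternatives with the diet, 34 with resveratrol and 33 for resveratrol against standard-diet livers, 14 of them single omissions and the deposited scores aside. An omission from the group not compared leaves the difference as it is and changes only the shared spread. Quantile scaling of spot brightness after loess leaves the ratios unchanged, so that alternative repeats the reported fit and always counts as kept.

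Near the receptor, 1 of 16 regulators changed with the diet and 1 with resveratrol, where 9.44% and 5.39% of all genes were called. Cbl, a ubiquitin ligase that joins the receptor complex, averaged -0.08 ± 0.08 on resveratrol arrays, -0.31 ± 0.04 on high-calorie arrays and -0.13 ± 0.10 on standard-diet arrays (SD, n = 4, 5 and 5). It fell by 0.18 with the diet (limma adjusted p = 0.0426) and rose by 0.23 with resveratrol (adjusted p = 0.0266). The diet call on Cbl was kept under 13 of 35 alternatives, and among single omissions only without standard-diet replicate 1 or 5 or resveratrol replicate 1, 2 or 3. The resveratrol call was kept under 19 of 34 and lost without high-calorie replicate 1, 2, 4 or 5 or resveratrol replicate 1 or 3. Both were lost with extraction day or slide series as a factor, and median scaling gave -0.11 with the diet. Of 19 adaptor and Ras-MAPK genes, Mapk9, which encodes the stress kinase JNK2, rose by 0.29 with the diet (adjusted p = 0.00567) and fell by 0.28 with resveratrol (adjusted p = 0.0165). Its groups did not overlap in either comparison, as was so for 10.3% and 13.0% of all genes. Averaging the probes of Mapk9 gave 0.13 (adjusted p = 0.0918) and -0.11 (adjusted p = 0.215), so both calls rest on the choice of probe. The diet call, kept under 29 of 35 alternatives, was also lost with either Cy3 setting, array brightness and within extraction day 2 and slide series 2. The resveratrol call on Mapk9, kept under 25 of 34, was also lost without resveratrol replicate 1 and with processed signals, median scaling, either Cy3 setting and the replicate block. Within extraction day 1 and slide series 1 it was lost too. Among 12 phosphoinositide enzymes none passed with the diet by limma (2 had an unadjusted p under 0.05, against 27.6% of all genes), and Inppl1, a phosphatase of the lipid that activates AKT, fell by 0.24 with resveratrol (adjusted p = 0.0244), a call kept under 18 of 34 alternatives and lost without high-calorie replicate 2 or 5 or resveratrol replicate 1 or 3. Extraction day or slide series as a factor also lost the call on Inppl1.

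Of 17 relatives and modulators of AKT, GSK3 and FOXO, 1 fell with the diet and 2 rose with resveratrol, where 9.44% and 5.39% of all genes were called. Prkcz, an atypical protein kinase C, fell by 0.31 with the diet (limma adjusted p = 0.00803) and rose by 0.30 with resveratrol (adjusted p = 0.0196). Averaging the probes of Prkcz gave -0.15 with the diet (adjusted p = 0.101) and median scaling -0.13 (adjusted p = 0.209), and the resveratrol call was lost without high-calorie replicate 2 and with either batch factor. In all, the diet call on Prkcz was kept under 28 of 35 alternatives and the resveratrol call under 25 of 34. Trib3, a pseudokinase that binds AKT, rose by 0.17 with resveratrol (adjusted p = 0.0469) and kept that call under 8 of 34 alternatives, among single omissions only without standard-diet replicate 2 or 5. In the TSC and mTOR list of 18 genes, 2 rose and 1 fell with the diet, where 9.44% of all genes were called. With resveratrol 1 rose and 1 fell, where 5.39% of all genes were called. Rictor, a subunit of the mTOR complex that phosphorylates AKT rather than of the first complex, fell by 0.22 with the diet (adjusted p = 0.00554) and rose by 0.20 with resveratrol (adjusted p = 0.0210). Averaging the probes of Rictor gave -0.10 (adjusted p = 0.0884) and 0.13 (adjusted p = 0.0728), median scaling gave -0.066 (adjusted p = 0.407) and 0.12 (adjusted p = 0.309), and the resveratrol call was also lost without high-calorie replicate 2 or 5 or resveratrol replicate 1 and with either batch factor. In all, the diet call on Rictor was kept under 27 of 35 alternatives and the resveratrol call under 22 of 34. Mlst8, a subunit of both mTOR complexes, rose by 0.23 with the diet (adjusted p = 0.0201), a call kept under 25 of 35 alternatives. It was lost without high-calorie replicate 1 or 5, and with processed signals, median scaling or the Cy3 channel alone. Slide series as a factor, array brightness and either extraction day on its own also lost the call on Mlst8. Eif4e, the cap-binding translation factor, rose by 0.26 (adjusted p = 0.0451), a call kept under 16 of 35 alternatives and lost without any one of the high-calorie arrays or standard-diet replicate 1, 2, 3 or 4. With no background correction Eif4e gave 0.079 (adjusted p = 0.104), and either batch factor also lost the call. Tsc2, which restrains the first complex, fell by 0.19 with resveratrol (adjusted p = 0.0477), a call kept under 8 of 34 alternatives, among single omissions only without standard-diet replicate 2 or 5 or resveratrol replicate 4.

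**Figure D5:**
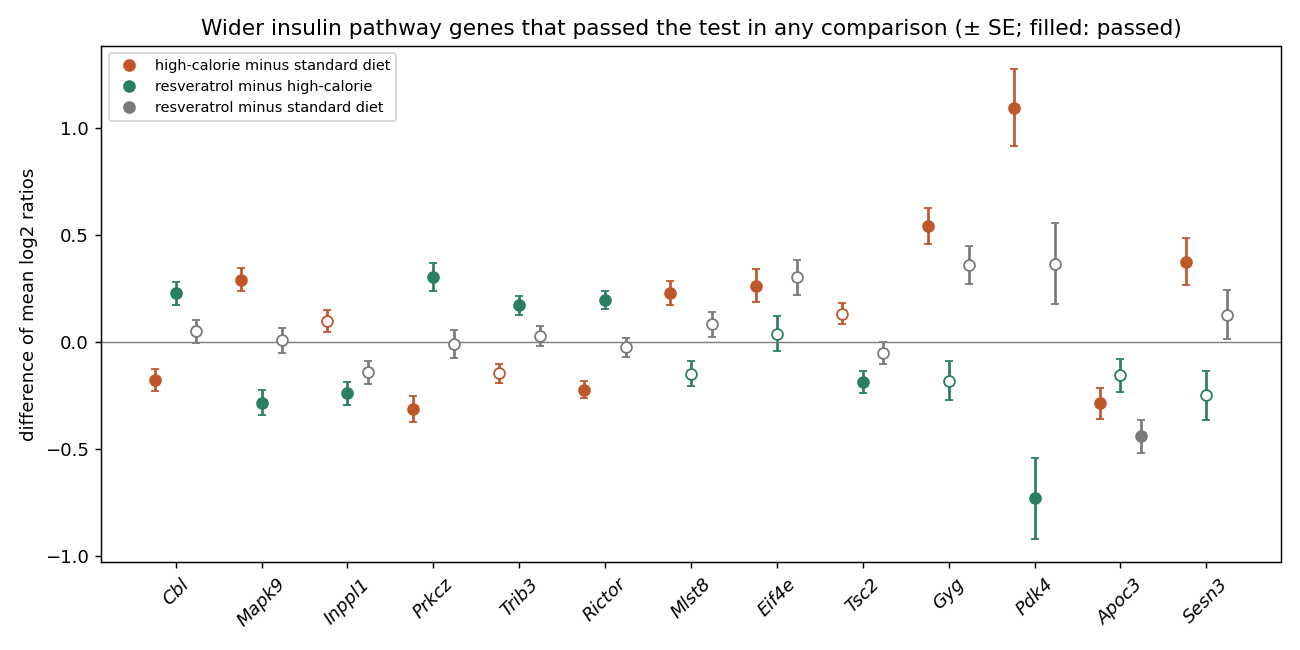
Difference of mean log2 ratios ± SE (vertical axis) of the 13 wider pathway genes called in any comparison, with filled points where the limma adjusted p was under 0.05. Pdk4 has the largest difference, 1.10 for high-calorie minus standard diet, and Apoc3 is the one gene filled for resveratrol minus standard diet, at -0.44.

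Downstream, 1 of 12 genes for metabolic targets of AKT and GSK3 passed, with the diet alone, where 9.44% of all genes were called. Gyg encodes glycogenin, which primes glycogen synthesis and is not itself an AKT substrate. It averaged -0.01 ± 0.17 on resveratrol arrays, 0.17 ± 0.14 on high-calorie arrays and -0.37 ± 0.13 on standard-diet arrays (SD), and rose 1.46-fold with the diet (limma adjusted p = 0.00175). Of 16 genes known as FOXO1 targets in liver, 2 rose and 1 fell with the diet, where 9.44% of all genes were called. At an unadjusted limma p under 0.05 there were 5 of the 16, against 27.6% of all genes. The median difference over the list was 0.23 with the diet, -0.13 with resveratrol and 0.027 for resveratrol against standard-diet livers. Pdk4, the kinase that shuts off pyruvate dehydrogenase, averaged 0.22 ± 0.41 on resveratrol arrays, 0.95 ± 0.23 on high-calorie arrays and -0.15 ± 0.32 on standard-diet arrays (SD). It rose 2.14-fold with the diet (adjusted p = 0.00230) and fell to 0.603 of the high-calorie level with resveratrol (adjusted p = 0.0402). The diet call on Pdk4 was kept under 33 of 35 alternatives. Its resveratrol call was kept under 13 of 34, was lost with an offset of 16 and with either batch factor, and among single omissions was kept only without standard-diet replicate 1, 2, 4 or 5, high-calorie replicate 5 or resveratrol replicate 2. Sesn3, a stress-responsive sestrin, rose by 0.38 with the diet (adjusted p = 0.0422), a call kept under 17 of 35 alternatives, with values of 0.097 to 0.77, and among single omissions only without standard-diet replicate 5, high-calorie replicate 3 or resveratrol replicate 2, 3 or 4. With the diet Apoc3, an apolipoprotein of triglyceride-rich particles, fell by 0.29 (adjusted p = 0.0274), a call lost without standard-diet replicate 1, 2 or 4 or high-calorie replicate 4 or 5, and median scaling turned the sign to 0.14 (adjusted p = 0.345).

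Apoc3 was the 1 gene of the wider pathway called between resveratrol and standard-diet livers. It averaged -0.08 ± 0.12 on resveratrol arrays, 0.08 ± 0.12 on high-calorie arrays and 0.36 ± 0.13 on standard-diet arrays (SD), and the resveratrol group did not overlap the standard-diet group. It fell by 0.44 in resveratrol against standard-diet livers (limma adjusted p = 0.0368), a call kept under 14 of 33 alternatives. It was lost with no background correction, processed signals, either Cy3 setting, extraction day or slide series as a factor, array brightness, within extraction day 1 and with both groups fitted alone. Median scaling gave -0.24 (adjusted p = 0.683), and the call was also lost without standard-diet replicate 1, 3 or 4, high-calorie replicate 1, 2, 3 or 4, or resveratrol replicate 1 or 4, where the difference lay between -0.46 and -0.40 and the limma adjusted p between 0.0555 and 0.114. Over the 12 lipogenic genes that insulin induces, the median difference was -0.043 with the diet, -0.32 for resveratrol against high-calorie and -0.40 for resveratrol against standard diet. None of the 12 passed by limma in any of the 3 comparisons, where 1, 4 and 4 had an unadjusted p under 0.05 in that order, against 27.6%, 22.2% and 10.6% of all genes. Me1, the malic enzyme that supplies reducing power for fat synthesis, gave -1.20 ± 0.35 (SE, adjusted p = 0.0625) between resveratrol and high-calorie livers, with no overlap between the groups. It gave 0.88 ± 0.33 (SE, adjusted p = 0.105) between high-calorie and standard-diet livers. Srebf1, a transcription factor of fatty acid synthesis genes, gave -0.61 ± 0.20 (SE, adjusted p = 0.285) between resveratrol and standard-diet livers.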

How the data were processed

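Liver RNA of 14 mice was measured on 2-colour Agilent arrays with no dye swap. Per the labels' protocols, RNA was purified on RNeasy columns and amplified linearly. The deposited scanner files hold spot and background intensity values from Agilent Feature Extraction 7.5.1, per the file headers. The authors also deposited values whose unit is a score (SD of 1 in each column), used only as an alternative, whose making the sources used here do not describe. Nothing in the sources says more of the replicates than that they are separate animals.

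Of 41174 probes, 20854 were matched to a RefSeq gene (GRCm38.p6) by systematic name, accession list or gene name, and both Pik3r1 probes by their description (p85alpha, a RefSeq synonym). RefSeq coordinates were used only for the promoter windows. Signals were corrected with normexp (offset 50) and loess, 576 flagged spots were left out, spots of a probe were averaged, and the brightest probe stood for a gene. Genes whose Cy3 signal was well above background on 4 or more arrays were fitted with limma 3.58.1 (R 4.3.3, package data.table, version 1.17.8), all 3 groups together. Confidence intervals use limma's moderated degrees of freedom (14.2). The fit was tested on simulated data. The number of arrays limits the precision.

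All 9 members were eligible to be named, and from each wider list up to 4 called genes by smallest adjusted p, or up to 2 as values where none passed. One gene was left out of the wider lists and is not reported here. The members and lists were chosen with earlier results of these data known. Replicate numbers did not pair the animals: correlations of same-numbered arrays' deviations ran from -0.185 to 0.300. Alternatives covered background, scaling, channels, filters, probes, weights, batches and omitted arrays. Extraction day is the day on which the array image was processed (all resveratrol arrays on day 1), and slide series divides the slide numbers at their widest gap (all standard-diet arrays in series 2).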

Additional observations from a re-analysis of the deposited data

Results flagged for a closer look

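Of 75 sets of replicate values tested, 5 held an array far from the others of its group, and chance gives about 1 in 20. Irs1 was 0.91 in standard-diet replicate 1, against 0.25 to 0.32 on the other standard-diet arrays. Foxo1, by probe A_51_P138044, was -0.18 in resveratrol replicate 1, against 0.03 to 0.07 on the other resveratrol arrays, and without that array resveratrol minus high-calorie was -0.077 (limma adjusted p = 0.652). Inppl1 was 0.67 in high-calorie replicate 1, against 0.45 to 0.48 on the other high-calorie arrays, and without it the resveratrol difference was -0.20 (limma adjusted p = 0.0460). Prkcz was 0.10 in resveratrol replicate 3, against -0.20 to -0.16 on the other resveratrol arrays, and -0.53 in high-calorie replicate 2, against -0.40 to -0.35 on the other high-calorie arrays. Without high-calorie replicate 2 the resveratrol difference of Prkcz was 0.27 (limma adjusted p = 0.0521).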

How the results depend on the processing

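The diet call on Pik3r1 was lost with no background correction (0.11), the Cy3 channel alone (0.085 with quantile scaling and 0.19 with the 75th percentile), the deposited scores (0.089 score units), the mean of both probes (0.095), slide series as a factor (0.28), array brightness as a covariate (0.17) and within extraction day 1 (0.30), extraction day 2 (0.27) and slide series 2 (0.30). The resveratrol call was lost with no background correction (-0.11), median scaling (-0.27), the Cy3 channel alone (-0.18 and -0.32), the deposited scores (-0.15), the mean of both probes (-0.13), extraction day (-0.29) or slide series (-0.32) as a factor and within extraction day 1 (-0.30) and slide series 1 (-0.28). The other probe gave -0.10 and 0.051, and Gsk3b's other probe 0.17 for the diet. Apoc3 turned to 0.14 with median scaling. Leaving out each array gave 0.245 to 0.352 and -0.347 to -0.268 for Pik3r1. With the replicate block, where numbers do not pair the animals, Pik3r1 kept the diet call and gave -0.27 for resveratrol (adjusted p = 0.0714), the resveratrol count was 409 genes with 0 of the 8 called, and the cause was not tested.

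The number of the 8 genes called between high-calorie and standard-diet livers was 2 with median scaling, array weights and without standard-diet replicate 5 and resveratrol replicate 3 together. In these settings 3032, 7109 and 6672 of all 32676 genes were called. It was 0 to 2 over single omissions, beside 1379 to 5993 of all genes. It was 0 by limma with either Cy3 setting, the scores, the mean of probes, slide series, brightness and within each batch, beside 55 to 2979 of all genes. There 1 to 3 of the 8 had an unadjusted limma p under 0.05, against 3518 to 8855 of all genes (31434 to 32680 tested). Between resveratrol and high-calorie livers the number called was 0 with no background correction, median scaling, either Cy3 setting, the scores, the mean of probes, the block, either batch factor and within each batch, beside 0 to 2695 of all genes. There 1 to 3 of the 8 had an unadjusted limma p under 0.05, against 3266 to 7984 of all genes. Over single omissions it was 0 to 1, beside 352 to 2571 of all genes.

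Over all genes, 3083 were called between high-calorie and standard-diet livers (1754 higher, 1329 lower), 954 and 430 with the Cy3 channel alone, 416 with the scores, 7109 with array weights, 1874 with slide series, 448 with brightness, 819, 55 and 837 within extraction day 1, day 2 and slide series 2, 6672 without both arrays named above, and 1379 to 5993 over single omissions. Median scaling gave 2396 higher and 636 lower, and the Cy3 channel alone 685 and 269 (quantile) or 347 and 83. Between resveratrol and high-calorie livers 1760 were called (1033 higher, 727 lower), with 2695 for no background correction, 1078 for offset 16, 1146 for local background subtraction, 698 for processed signals, 120 for median scaling (31 higher, 89 lower), 83 and 45 for Cy3 alone (22 and 61, 14 and 31), 48 for the scores, 3026 for array weights, 445 for extraction day, 672 for slide series, 52 within extraction day 1, 0 within slide series 1 (3987 at an unadjusted limma p under 0.05) and 352 to 2571 over single omissions. Between resveratrol and standard-diet livers 70 were called (41 higher, 29 lower), with 32 for no background correction, 32 for processed signals, 17 for median scaling, 21 and 9 for Cy3 alone, 4 for the scores, 180 for array weights, 10 for slide series, 22 for brightness, 24 for both groups alone, 514 without both arrays and 23 to 214 over single omissions. The probes of Irs1 and Gsk3b were near the array's background, which limits what their ratios can show.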

Other observations

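Other clone probes bear descriptions of member genes without naming them. Clone D330012G24, inferred on the array to be Irs1, gave log2 ratios of -0.30 to 0.03 on resveratrol arrays, -0.09 to 0.14 on high-calorie arrays and -0.41 to 0.25 on standard-diet arrays. The other clone, described as a glycogen synthase kinase 3 fragment homolog, gave -0.05 to 0.09, 0.05 to 0.17 and 0.00 to 0.09 in the same order of groups. Neither passed in any comparison over all probes.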
